A study of Mus musculus with 4 samples.

Results

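The 10 *Wnt* ligands of the urogenital sinus (UGS) described here are *Wnt2*, *Wnt2b*, *Wnt4*, *Wnt5a*, *Wnt5b*, *Wnt6*, *Wnt7b*, *Wnt9b*, *Wnt10a* and *Wnt11*. They were taken by name from a deposited table of 25819 rows, which holds 19 *Wnt* rows in all, and each of the 10 was found in 1 row. RNA-Seq was made from whole UGS, mesenchyme and epithelium together, of male mouse embryos from timed matings on a B6C3-F1 hybrid background. The 4 libraries cover E16.5 and E18.5, each with wild type littermates and with Tbx18Gfp/Gfp embryos, called mutant below, a null genotype in which both alleles of the T-box factor gene *Tbx18* carry a GFP knock-in in all cells. Each library was made from RNA of 3 embryos pooled before sequencing. Where values stand in a row of 4, they are given for wild type and then mutant at E16.5, followed by wild type and then mutant at E18.5. With 1 library per genotype and stage, no difference between genotypes or stages could be tested and no spread between embryos is known. Intervals given below are 95% intervals that cover counting error only.

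WNT proteins are secreted, lipid-modified signals that bind Frizzled receptors with LRP5 or LRP6 on nearby cells and stabilise β-catenin, or act through β-catenin-independent routes that steer cell polarity and movement. The acyltransferase PORCN and the carrier WLS are needed to release them. In the developing urogenital tract, *Wnt* ligands are made by both epithelium and mesenchyme and take part in the exchange of signals through which mesenchyme and epithelium shape ducts and buds. The prostate buds of the male mouse begin to grow out of the UGS epithelium between the stages sampled here.

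Expression was measured as FPKM, read counts scaled to transcript length and to the mapped reads of the library. The libraries held an estimated 2.90e+07 to 6.40e+07 mapped reads, and E18.5 wild type was the shallowest. *Tbx18* itself had 3.47, 2.50, 3.16 and 2.93 FPKM, and these values cannot tell RNA of a knock-in allele from RNA of an intact allele. All 14 epithelial and all 11 mesenchymal marker genes listed were above 0 in every library, as were 8 smooth muscle and 10 skeletal muscle genes, so the libraries held several tissues. In such bulk RNA, fewer cells of a type and less RNA per cell cannot be told apart.

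The E18.5 wild type library stood apart from the other 3 for the *Wnt* ligands. Each of the 10 had its lowest FPKM there, from 0.98 times the lowest of the other 3 libraries for *Wnt5a* down to 0.28 times for *Wnt11*. For *Wnt5a* the counting interval of the log2 ratio of E18.5 mutant to wild type spans 0 (-0.01 to 0.08). Low values in this library were not particular to the ligands. Of all genes, 69.5% were higher in mutant than in wild type at E18.5, and 27.7% were higher at E18.5 than at E16.5 in wild type. The share of all genes with their lowest value there was not computed. Among the other 3 libraries, the highest FPKM of a ligand was between 1.14 times (*Wnt6*) and 1.54 times (*Wnt9b*) its lowest. Every mutant difference at E18.5 and every stage difference in wild type below rests on this library.

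*Wnt5a*, *Wnt4*, *Wnt5b* and *Wnt11* are the ligands best known for β-catenin-independent signalling, although *Wnt4* can act by either route. *Wnt5a*, which drives outgrowth of the limbs and genital tubercle, was the most highly expressed ligand in every library. It had 31.1, 34.7, 28.5 and 29.2 FPKM. The levels lie close together in all 4 libraries, unlike those of every other ligand. *Wnt4*, needed for kidney tubule formation and for the female reproductive tract, was second in every library, with 22.7, 19.4, 6.79 and 16.6 FPKM. *Wnt5b*, the nearest relative of *Wnt5a*, had 4.32, 6.01, 1.90 and 6.05 FPKM. *Wnt11*, known from the tips of the branching ureteric bud, had 5.09, 5.11, 1.18 and 4.23 FPKM. For *Wnt4*, *Wnt5b* and *Wnt11* the E18.5 wild type value was low, and the mutant value of that stage lay nearer to those of E16.5.

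The other 6 ligands are mostly known for signalling through β-catenin. *Wnt7b*, an epithelial ligand of lung and kidney, had 8.49, 9.25, 2.70 and 6.76 FPKM. *Wnt6*, a ligand of surface and somite epithelia, had 7.39, 7.91, 2.08 and 6.95 FPKM. Both had the E18.5 wild type library far below the other 3. *Wnt2* and *Wnt2b* are related ligands that specify the lung from the mesenchyme side. *Wnt2* had 5.11, 5.87, 2.95 and 7.79 FPKM, and *Wnt2b* 1.82, 1.89, 1.46 and 2.61 FPKM. These were the ligands, with *Wnt5b*, that had their highest value in the E18.5 mutant library. *Wnt9b*, the nephric duct signal that starts kidney tubule formation, had 2.05, 3.08, 0.952 and 1.998 FPKM. *Wnt10a*, a ligand of tooth and skin appendage development, had 1.79, 1.59, 0.473 and 1.39 FPKM. *Wnt10a* was the lowest of the 10 in every library, and its E18.5 wild type value stands for about 31 reads, against about 111 or more for each of the others.

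**Figure D1:**
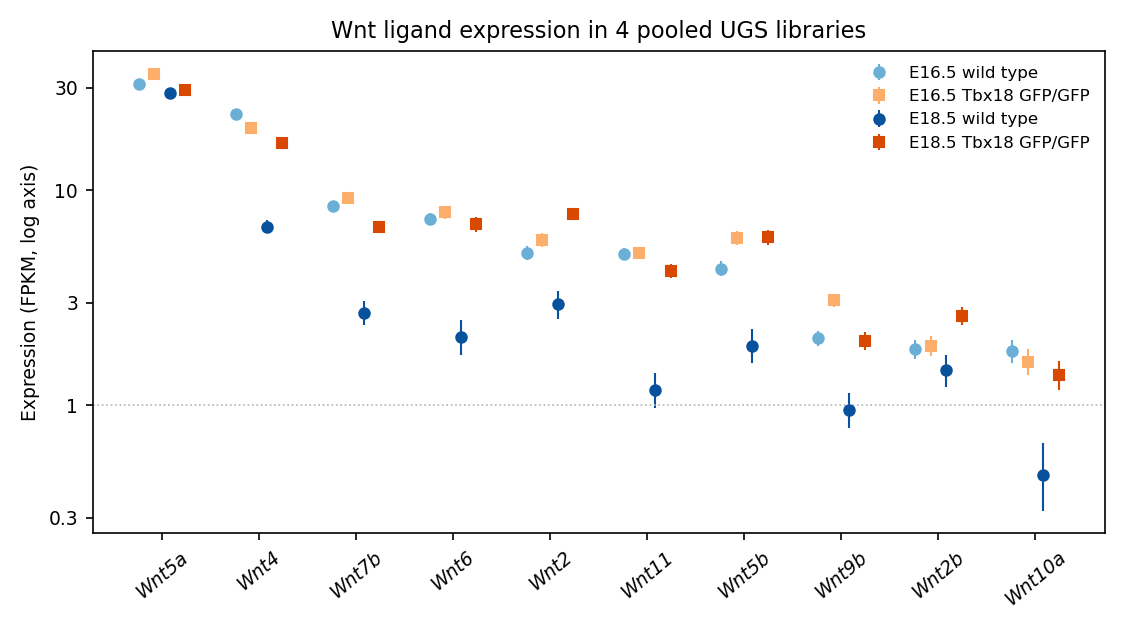
FPKM (log axis) of the 10 *Wnt* ligands in the 4 pooled libraries, ordered by E16.5 wild type. Points are single libraries and bars are 95% Poisson intervals on the estimated reads. The E18.5 wild type point is the lowest of 4 for every ligand, by little for *Wnt5a* (28.5 FPKM) and by much for *Wnt11* (1.18 FPKM).

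Because FPKM is scaled to transcript length, levels can be set in order within a library, although GC content can still move that order. The trend with GC content and length described below was not taken off here. In the E18.5 log2 ratio of mutant to wild type it ran from -0.03 for *Wnt5a* to 1.01 for *Wnt10a*. *Wnt5a* and *Wnt4* held the first places everywhere, apart from each other and from the ligands that followed by more than counting error. At E16.5, *Wnt7b* and *Wnt6* followed in both genotypes. Below these, neighbours were compared only by whether their separate counting intervals overlap. Overlap does not show that levels are equal, since no interval of the difference was computed. In E16.5 wild type the intervals overlapped for *Wnt2* and *Wnt11*, and from each to the next in the run of *Wnt9b*, *Wnt2b* and *Wnt10a*. In the E16.5 mutant library they overlapped for *Wnt5b* and *Wnt2*, *Wnt2* and *Wnt11*, and *Wnt2b* and *Wnt10a*. At E18.5 *Wnt2* came next in both genotypes. In E18.5 wild type, intervals overlapped at each step from *Wnt2* through *Wnt7b*, *Wnt6*, *Wnt5b*, *Wnt2b* and *Wnt11* to *Wnt9b*, with only *Wnt10a* set apart below. In the E18.5 mutant library this held for the steps from *Wnt2* through *Wnt6* and *Wnt7b* to *Wnt5b*.

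The make-up of *Wnt* expression within a library does not depend on how libraries are scaled against each other, although it does move with the GC trend described below. The 19 *Wnt* rows summed to 96.7, 101, 50.9 and 89.5 FPKM, of which the 10 ligands made up 92.9%, 94.3%, 96.2% and 93.4%. *Wnt5a* alone made up 32.2%, 34.5%, 56.0% and 32.6%. Its share was higher in E18.5 wild type than in the other 3 libraries. Without *Wnt5a*, the other 9 ligands summed to 58.7, 60.2, 20.5 and 54.3 FPKM. The ratio of *Wnt5a* to *Wnt4* was 1.37, 1.79, 4.2 and 1.76, and that of *Wnt5a* to its relative *Wnt5b* was 7.20, 5.78, 15.0 and 4.83. With the GC and length trend taken off, the E18.5 log2 ratio of mutant to wild type of *Wnt5b* exceeded that of *Wnt5a* by 0.76, in place of 1.64. The ratio of *Wnt6* to *Wnt10a* was 4.13, 4.97, 4.4 and 5.02. These ligands are neighbours on chromosome 1, with 6699 bases between them in the deposited positions, and also have similar GC contents of 61.3% and 63.8%, far from the 46.7% of *Wnt5a*.

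**Figure D2:**
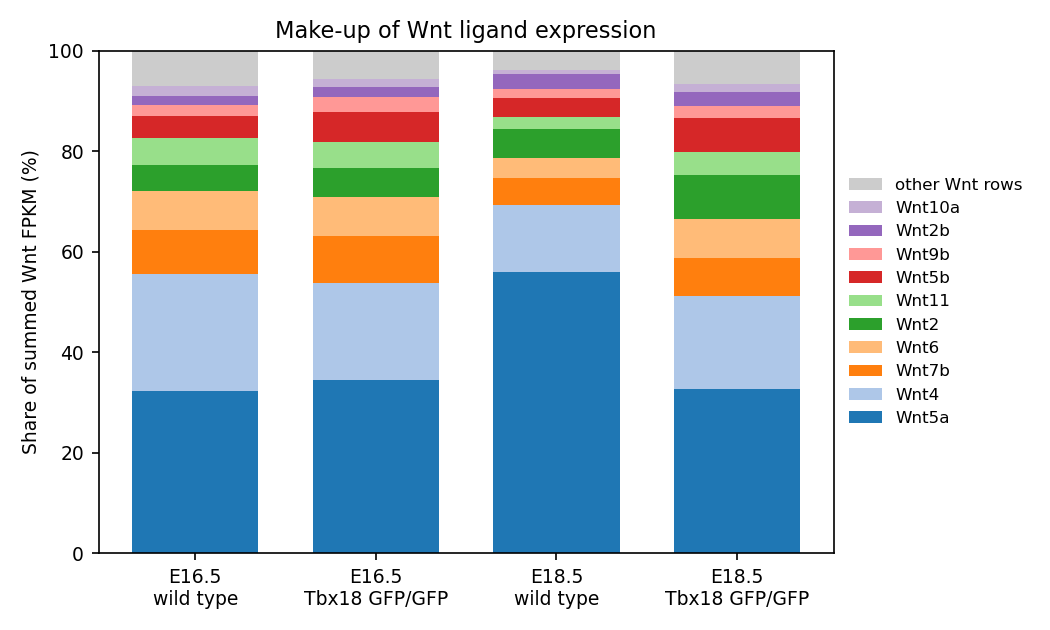
Share (%) of the summed FPKM of 19 *Wnt* rows held by each of the 10 ligands and by the other rows, per library. *Wnt5a*, at the base of each bar, holds 56.0% in E18.5 wild type and between 32.2% and 34.5% in the other 3 libraries.

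The first comparison asked how mutant UGS differed from wild type at E16.5, before prostate budding. The ligands differed little between the genotypes. None of the 10 was at least 2-fold higher or lower in the mutant, beside 0.481% of 14761 genes that were 2-fold or more higher and 1.17% that were 2-fold or more lower. Genes entered this and the later comparisons with at least 1 FPKM in either library, which all 10 ligands met in every comparison. The log2 ratios of mutant to wild type ran from -0.22 for *Wnt4* to 0.59 for *Wnt9b*, with a median of 0.11 beside 0.01 over all genes. The ratio was above 0 for 8 ligands, beside 54.2% of genes, and for 5 with the library sums made equal, beside 22.4%. *Wnt9b* was 1.5-fold higher in the mutant (counting interval of the log2 ratio 0.43 to 0.75), and its ratio lay above those of 98.6% of genes. *Wnt5b* was 1.39-fold higher (log2 ratio 0.48, interval 0.32 to 0.63). *Wnt4* and *Wnt10a* had the negative ratios, and the interval of *Wnt10a* (-0.44 to 0.10) spans 0, as do those of *Wnt2b*, *Wnt6* and *Wnt11*. The 6 nephric and genital duct marker genes tested were all higher in the same mutant library, with a median log2 ratio of 0.64, the 8 smooth muscle genes were all lower (-0.94), and all 10 skeletal muscle genes were past 2-fold lower (-1.24). Of 14 epithelial genes 11 were lower (median -0.33), as were 7 of 8 genes of neurons and glia (-0.27). The 6 endothelial and 7 leukocyte genes tested were all higher (0.18 and 0.22), as were 10 of 11 mesenchymal genes (0.08). The part of these tissues in the ratios of the ligands was not tested.

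At E18.5, after prostate budding has begun, 8 of the 10 ligands were 2-fold or more higher in mutant than in wild type UGS and none was 2-fold lower. Of all 14733 genes, 15.1% were that much higher and 2.89% that much lower. The median log2 ratio of the ligands was 1.36, beside 0.31 over all genes. The largest was that of *Wnt11*, 3.59-fold higher in the mutant (log2 ratio 1.85, counting interval 1.55 to 2.14), above the ratios of 97.7% of genes. *Wnt6* was 3.34-fold higher (1.74, interval 1.45 to 2.05) and *Wnt5b* 3.18-fold (1.67, interval 1.39 to 1.96). *Wnt10a*, *Wnt2*, *Wnt7b*, *Wnt4* and *Wnt9b* followed with log2 ratios of 1.55, 1.40, 1.32, 1.29 and 1.07. The interval of *Wnt10a* reached down to 0.99 and that of *Wnt9b* to 0.78, so for these 2-fold lies within counting error. The 2 ligands under the threshold were *Wnt2b*, 1.79-fold higher (0.84, interval 0.56 to 1.14), and *Wnt5a*, with a log2 ratio of 0.03 (interval -0.01 to 0.08) that lay above those of only 32.6% of genes.

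**Figure D3:**
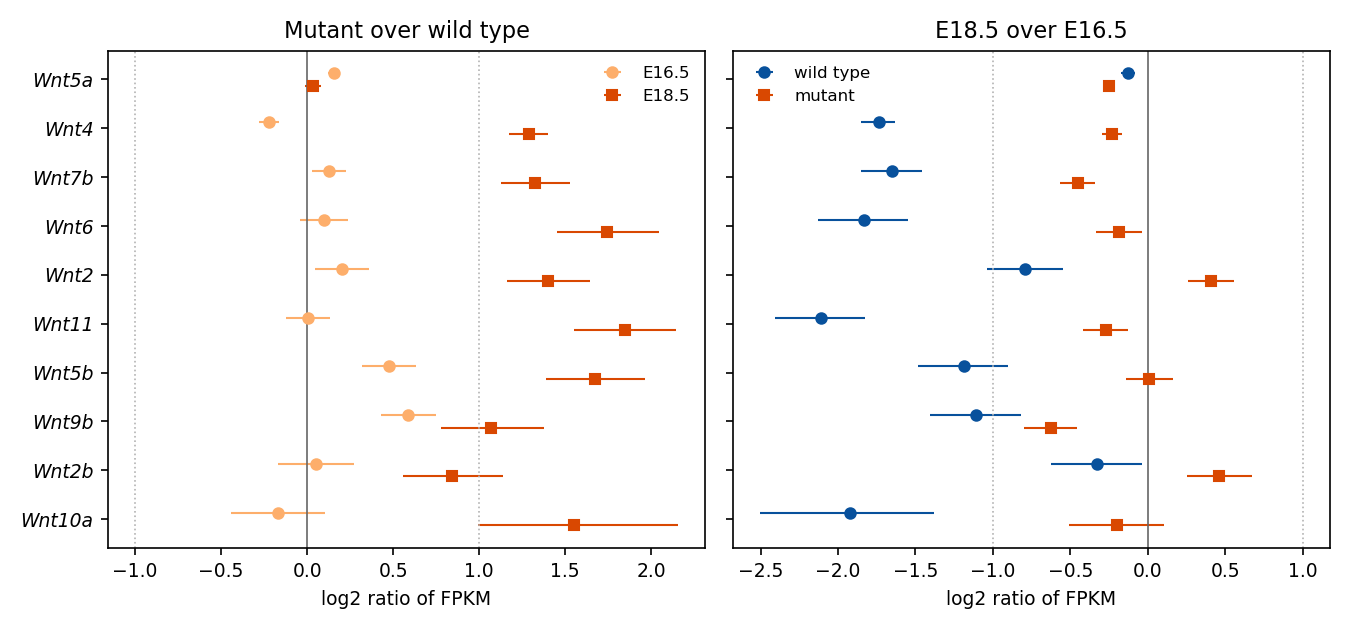
Log2 ratios of FPKM for each ligand, mutant over wild type at both stages (left) and E18.5 over E16.5 in both genotypes (right), with 95% counting intervals as bars and 2-fold as dotted lines. On the left 8 of 10 ligands are past 2-fold at E18.5 and none at E16.5. On the right 7 are past 2-fold in wild type and none in the mutant.

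The E18.5 libraries differed broadly, so the ratios were also read against all other genes. Over genes that reached 1 FPKM in both, the median log2 ratio was 0.29. Relative to it, 6 ligands were at least 2-fold higher, beside 8.19% of genes, with *Wnt4* at 1.00 just under the threshold and *Wnt9b* at 0.78. *Wnt5a* was then at -0.25, so its direction turned with the scaling. The ratio also followed the base composition of transcripts. With genes in 10 bins by GC content, 1.15% of the bin poorest in GC and 37.4% of the richest were past 2-fold higher. The longest coding transcripts of the ligands had GC contents from 46.7% (*Wnt5a*) to 63.8% (*Wnt10a*) with a median of 56.6%, beside 50.2% over all genes with at least 1 FPKM in a library. *Wnt5b*, *Wnt6* and *Wnt7b* lay in the highest bin, where the median log2 ratio of all genes was 0.82, and *Wnt2b*, *Wnt4* and *Wnt11* in the one below (0.65). *Wnt5a* lay in the fourth bin (0.16), the lowest of any ligand. Once the smooth trend of the ratio with GC content and transcript length was taken off, *Wnt11* alone stayed past 2-fold, with a log2 ratio of 1.24, so that 1 of 10 ligands passed beside 3.51% of genes. All 10 ratios were still above 0, beside 51% of genes, with a median of 0.67 beside 0.01 over all genes. Among the ligands, *Wnt2* was then at 0.91, *Wnt5b* at 0.83, *Wnt6* at 0.80, *Wnt4* at 0.77 and *Wnt2b* at 0.22. A GC trend was also seen between the wild type stages, where 0.84% of the poorest bin and 45.0% of the richest were past 2-fold lower at E18.5. Bin medians there went from 0.06 to -0.93. They lay between 0.006 and 0.024 for mutant over wild type at E16.5, and between -0.006 and -0.134 for the mutant stages. The trend was thus widest in the comparisons that hold E18.5 wild type. Its origin was not tested, and at E18.5 base composition and genotype cannot be told apart with 1 library each.

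**Figure D4:**
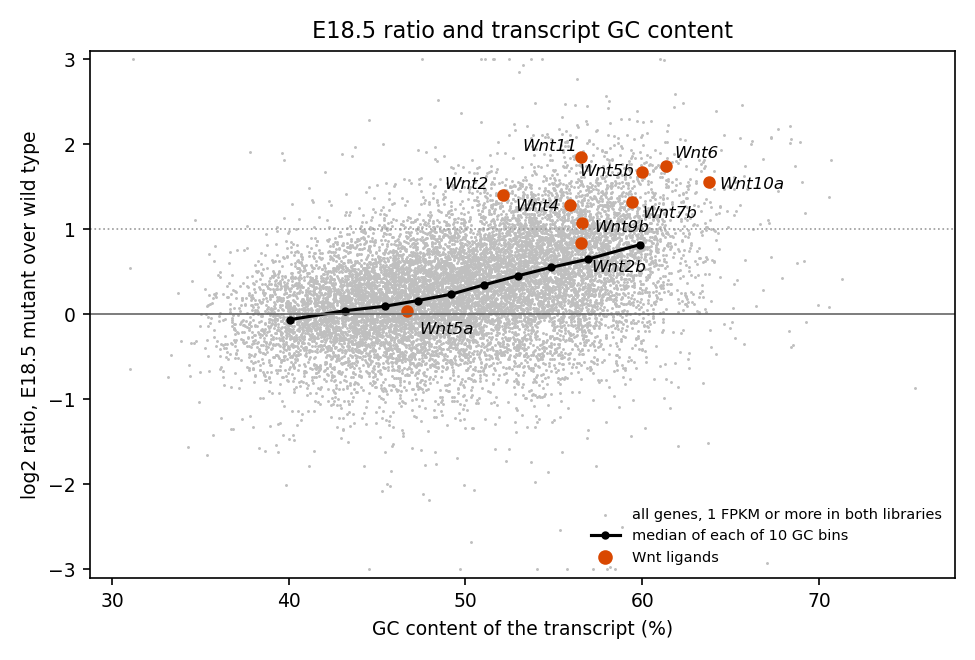
Log2 ratio of E18.5 mutant over wild type FPKM against GC content (%) of the transcript, for genes that reached 1 FPKM in both (grey, values past 3 drawn at the edge) and the 10 ligands (orange, among them *Wnt9b* and *Wnt10a*, which were below 1 FPKM in wild type). The black line joins the medians of 10 GC bins, from -0.06 to 0.82, and *Wnt5a* lies just below it at 0.03.

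The sequence before the start of transcription was also rich in GC. RefSeq start sites on GRCm38.p6 were matched by symbol for 7 of the 10 ligands, with 10 start sites in all. *Wnt5a*, *Wnt7b* and *Wnt10a* had no entry. The 250 bases upstream had a median GC content of 71.4% and 25 CpG dinucleotides in the ligands, beside 52.4% and 6 over 32851 such sequences. Given here are *Wnt11* and *Wnt6*, with the largest E18.5 ratios, *Wnt4*, the most highly expressed of the ligands past 2-fold, and *Wnt2*, which has the lowest GC content at a first-listed start site (63.6%, with 20 CpG, beside 85.2% and 44 for *Wnt4*). Each is written 5′ to 3′ on the strand of its gene, from 250 bases before the start to the base before it, with every CpG in capitals. *Wnt11* is the plus strand of chr7:98834862-98835111, *Wnt6* the plus strand of chr1:74771642-74771891, *Wnt4* the plus strand of chr4:137277385-137277634 and *Wnt2* the minus strand of chr6:18030446-18030695.
*Wnt11*: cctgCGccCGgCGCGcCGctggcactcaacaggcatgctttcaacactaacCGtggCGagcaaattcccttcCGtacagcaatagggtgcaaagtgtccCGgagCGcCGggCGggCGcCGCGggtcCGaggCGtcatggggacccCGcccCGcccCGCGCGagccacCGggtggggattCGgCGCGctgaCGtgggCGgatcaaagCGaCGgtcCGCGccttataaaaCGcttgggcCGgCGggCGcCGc
*Wnt6*: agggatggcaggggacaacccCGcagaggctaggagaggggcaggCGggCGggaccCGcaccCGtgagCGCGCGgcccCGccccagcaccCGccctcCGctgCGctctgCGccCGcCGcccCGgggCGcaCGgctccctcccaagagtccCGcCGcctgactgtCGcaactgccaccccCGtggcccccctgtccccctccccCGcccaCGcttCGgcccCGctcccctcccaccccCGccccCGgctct
*Wnt4*: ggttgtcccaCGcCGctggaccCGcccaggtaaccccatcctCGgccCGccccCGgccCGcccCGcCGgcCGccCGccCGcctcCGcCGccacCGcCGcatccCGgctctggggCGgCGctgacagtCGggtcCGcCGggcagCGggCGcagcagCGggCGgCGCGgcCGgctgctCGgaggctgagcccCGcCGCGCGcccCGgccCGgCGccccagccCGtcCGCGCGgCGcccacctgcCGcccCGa
*Wnt2*: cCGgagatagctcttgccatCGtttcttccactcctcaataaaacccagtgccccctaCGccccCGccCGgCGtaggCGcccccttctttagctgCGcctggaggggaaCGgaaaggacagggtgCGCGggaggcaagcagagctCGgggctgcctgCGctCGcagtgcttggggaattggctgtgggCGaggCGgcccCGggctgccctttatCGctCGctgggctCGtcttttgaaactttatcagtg

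These sequences were searched on both strands for GGTGTGA, a core of the sites bound by T-box factors, and for 4 forms of the core of the sites bound by TCF and LEF factors. The first form was CTTTGAA and the second form was CTTTGAT. The others were CTTTGTA for the third form and CTTTGTT for the last form. Neither the T-box letters nor their reverse complement contain a TCF and LEF form. GGTGTGA was found in none of the 10 upstream sequences of the ligands, beside 3.33% of all upstream sequences of that length. A TCF and LEF form was found in 2 of the 10, beside 14.8% of all. Both were CTTTGAT, at the first start site of *Wnt11* and the last of *Wnt5b*. A match in these windows describes letters only and shows no binding. *Wnt11* and *Wnt5b* have further start sites whose upstream sequence is poorer in GC, at 56.8% for the second site of *Wnt11* and 53.2% and 55.6% for those of *Wnt5b*.

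The wild type libraries were compared between stages. All 10 ligands were lower at E18.5 than at E16.5, and 7 were at least 2-fold lower. Of 14807 genes, 27.7% had a ratio above 0, 16.8% were at least 2-fold lower and 2.7% that much higher. The median log2 ratio of the ligands was -1.42, beside -0.35 over all genes. *Wnt11* had the lowest, at -2.11 (interval -2.40 to -1.82), a value 4.32-fold lower at E18.5. *Wnt10a*, *Wnt6*, *Wnt4*, *Wnt7b*, *Wnt5b* and *Wnt9b* had -1.92, -1.83, -1.74, -1.65, -1.19 and -1.11. The 3 ligands within 2-fold were *Wnt2* (-0.79), *Wnt2b* (-0.33) and *Wnt5a* (-0.13). Relative to the median of all genes 5 ligands were at least 2-fold lower, beside 8.23% of genes, and *Wnt2b* and *Wnt5a* turned to 0.01 and 0.20. With the GC and length trend taken off 2 were, beside 3.31% of genes, namely *Wnt11* at -1.40 and *Wnt4* at -1.11. This comparison shares its E18.5 wild type library with the mutant comparison at that stage, so the 2 sets of ratios are not independent.

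In mutant UGS no ligand was 2-fold higher or lower at E18.5 than at E16.5, beside 1.35% of 14713 genes that were 2-fold or more higher and 0.571% that were 2-fold or more lower. The median log2 ratio of the ligands was -0.21, beside -0.06 over all genes. *Wnt9b* was the lowest at -0.62 (interval -0.80 to -0.45), below which lay 1.39% of genes, and *Wnt7b* followed at -0.45. *Wnt2b* and *Wnt2* were higher at E18.5, with log2 ratios of 0.46 (interval 0.25 to 0.68) and 0.41 (0.26 to 0.56). In all, 8 of the 10 ligands had an interval that excludes 0 between the mutant libraries, *Wnt2* and *Wnt2b* above it and 6 others below it, each by less than 2-fold. Such intervals were not computed for all genes, so that count has no share to be set beside. The ratio was above 0 for 3 of the 10 ligands, beside 35.3% of genes. Set against E16.5 wild type in place of E18.5 wild type, a comparison chosen after the data were seen and in which stage and genotype cannot be told apart, 0 of 10 ligands in the E18.5 mutant library were past 2-fold either way, beside 1.23% of 14766 genes past 2-fold higher and 1.28% past 2-fold lower, with log2 ratios from -0.45 for *Wnt4* to 0.61 for *Wnt2*.

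Markers of the tissues in the UGS were followed in the E18.5 libraries beside the ligands. The summed FPKM of the 14 epithelial genes was 877 in wild type and 1059 in mutant UGS, and none of them was 2-fold higher, with a median log2 ratio of 0.12. That of the 11 mesenchymal genes was 3931.5 and 4727 (median 0.27, and -0.02 with the GC and length trend taken off, none 2-fold higher). Of 8 smooth muscle genes 5 were past 2-fold higher, beside 15.1% of all genes. With the GC and length trend taken off 3 were, beside 3.51%. The smooth muscle median was 1.16 (0.65 with the trend taken off), with sums of 1338 and 3656 FPKM. The nephric and genital duct genes had a median of -0.54, with 5 of 6 lower in the mutant, while 69.5% of all genes were higher. With the trend taken off their median was -1.10 and 4 of 6 were past 2-fold lower, beside 5.28% of all genes. Of 7 leukocyte genes tested 2 were past 2-fold higher, with a median of 0.76. With the trend taken off none of these was past 2-fold higher, and the leukocyte median was 0.19. Of the 14 epithelial genes 9 had a ratio above 0, beside 69.5% of all genes, and 5 below. Single ones, named after their values were seen, came close to 2-fold either way. *Krt8* had a log2 ratio of 1.00, just under it, and *Upk3a* and *Cldn4* 0.96. On the other side *Foxa1* had -0.97 and *Trp63* -0.89. With the GC and length trend taken off, *Krt8*, *Upk3a* and *Cldn4* were at 0.24, 0.14 and 0.20, and the median of the list was -0.52. The part of these tissues in the values of the ligands was not tested.

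The other genes of the *Wnt* pathway were read in the same way at E18.5. Of 66 genes tested from 8 lists of other pathway genes (72 genes in all), 4 were at least 2-fold higher in the mutant and none was 2-fold lower, with a median log2 ratio of 0.13, beside the 15.1% and 2.89% of all genes given above. The balance turned with the scaling. Relative to the median of all genes 2 were that much higher and 5 that much lower, beside 8.19% and 5.42% of all genes. With the GC and length trend taken off none was that much higher and 5 were that much lower, beside 3.51% and 5.28%. The 4 were *Ptk7*, a co-receptor of planar polarity, *Notum*, a secreted enzyme that inactivates WNT proteins, *Dvl1*, a scaffold that relays the signal, and *Pygo2*, a nuclear cofactor of β-catenin. For release of ligands, *Wls*, listed under its older symbol *Gpr177*, had 34.1 and 50.7 FPKM in wild type and mutant (log2 ratio 0.57) and *Porcn* 2.61 and 4.09 FPKM (0.65). The 9 Frizzled receptors tested had a median of 0.27 and none passed 2-fold. *Fzd1*, the highest by mean FPKM over the 4 libraries, had 35.4 and 50.6 FPKM, *Fzd7* had 41.5 and 30.8 FPKM and *Fzd2* had 16.2 and 31.5 FPKM. *Fzd7* and *Fzd2* thus lay on opposite sides, with log2 ratios of -0.43 and 0.96. *Rspo3*, an R-spondin that raises the response to WNT proteins, had 29.4 and 30.02 FPKM.

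Secreted and membrane-bound antagonists had a median log2 ratio of 0.11 at E18.5, and of -0.21 with the trend taken off. Of 12 tested 6 were above 0, beside 69.5% of all genes. *Sfrp2*, a decoy that binds WNT proteins and the most highly expressed of the list, had 210 and 171 FPKM at E18.5, and *Sfrp1* had 59.1 and 57.3 FPKM. The 16 intracellular genes had a median of -0.10, and of -0.39 relative to all genes. Among them *Ctnnb1*, which encodes β-catenin, had 162 and 247 FPKM (log2 ratio 0.61). The 10 feedback targets, genes that are switched on by β-catenin signalling in many tissues, had a median of 0.11, and *Notum* was the only 1 of the list past 2-fold higher. Relative to all genes the median was -0.18, and with the trend taken off it was -0.35. In either case 1 of 10 was at least 2-fold lower, beside 5.42% and 5.28% of all genes. *Axin2*, the most widely used of them, had 8.45 and 9.09 FPKM (0.11, and -0.35 with the trend taken off), *Nkd1* 12.7 and 14.9 FPKM (0.24) and *Nkd2* 10.05 and 10.4 FPKM (0.05). *Lef1* and *Lgr5*, named after their values were seen, had -0.92 and -0.59. The direction of this list at E18.5 thus depends on the scaling. At E16.5, 8 of the 10 targets were higher in the mutant, beside 54.2% of all genes. The median of the targets was then 0.26, beside 0.01 over all genes. *Axin2* had 10.3 and 13.3 FPKM (0.37), and none of the targets passed 2-fold. Of 9 planar polarity genes none passed 2-fold at E18.5 (median 0.18).

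**Figure D5:**
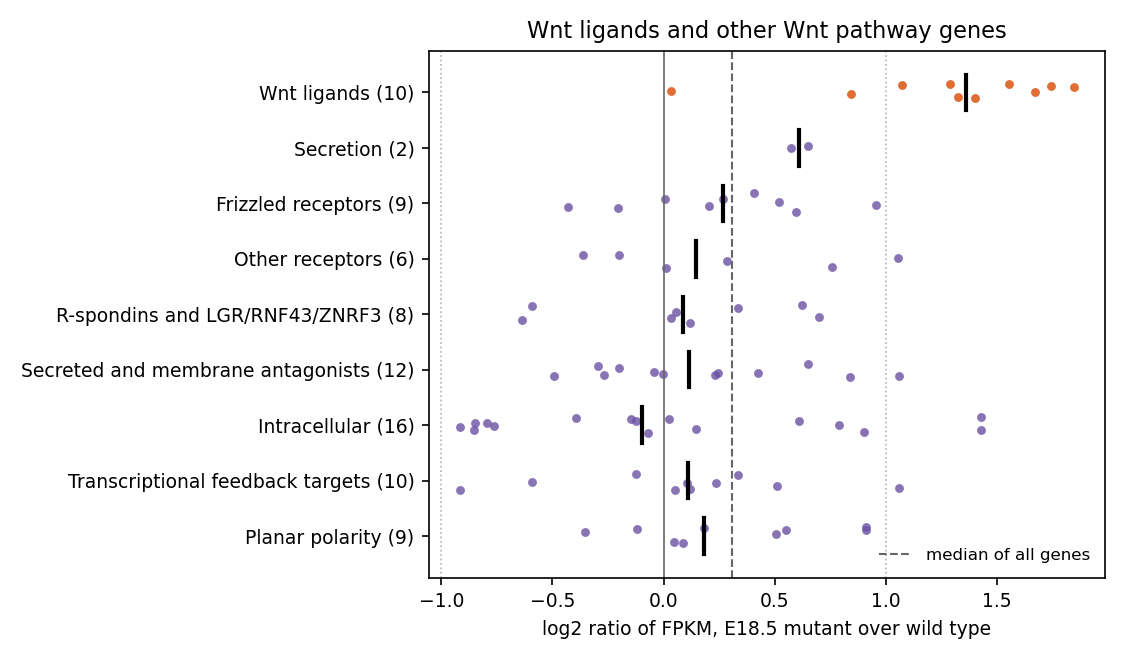
Log2 ratios of E18.5 mutant over wild type FPKM for the 10 ligands and for 8 lists of other *Wnt* pathway genes (number tested in brackets, 1 point a gene, black bars as medians). The median of the ligands is 1.36 and those of the lists lie between -0.10 and 0.61, with only the 2-gene secretion list above the dashed median of all genes at 0.31.

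Of the 9 *Wnt* rows besides the 10 ligands, *Wnt9a* and *Wnt16* reached 1 FPKM. *Wnt9a* had 3.07, 3.17, 1.11 and 3.33 FPKM, with a log2 ratio of 1.59 at E18.5 that was 0.98 with the GC and length trend taken off. *Wnt16* had 2.82, 1.63, 0.545 and 1.83 FPKM. Its GC content of 40.4% was below that of all 10 ligands, and its E18.5 ratio of 1.74 was 1.70 with that trend taken off. *Wnt16* was also lower in the mutant at E16.5 (log2 ratio -0.79, interval -1.0 to -0.58). *Wnt1*, *Wnt3*, *Wnt3a*, *Wnt7a*, *Wnt8a*, *Wnt8b* and *Wnt10b* stayed below 1 FPKM in every library, the highest being *Wnt10b* at 0.426 FPKM in the E18.5 mutant library.

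Positions in the deposited table, whose genome build is not given in the sources used here and differs from GRCm38, put the ligands on 8 chromosomes. *Wnt5a* spans 29318659 to 29338620 on chromosome 14, *Wnt4* 136833550 to 136852694 on chromosome 4 and *Wnt11* 105987355 to 106003257 on chromosome 7. *Wnt6* (74818466 to 74831893) and *Wnt10a* (74838593 to 74850750) lie side by side on chromosome 1. *Wnt2* (17938940 to 17980445) and *Wnt5b* (119382549 to 119494365) lie far apart on chromosome 6. *Wnt2b* spans 104747723 to 104764627 on chromosome 3, *Wnt9b* 103588677 to 103611135 on chromosome 11 and *Wnt7b* 85365867 to 85412251 on chromosome 15. *Wnt5b* alone overlaps another row of the table, *Fbxl14*, which had 8.45, 8.65, 9.79 and 8.21 FPKM and so did not have the low E18.5 wild type value of *Wnt5b*. The paper names a stranded library kit and default TopHat options, but does not state whether reads were assigned by strand there.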

How the data were processed

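Whole UGS of male embryos was sequenced as 4 stranded single-end libraries. Per the labels' processing notes, the authors used CASAVA 1.8.2, Trimmomatic 0.30, TopHat2 2.1.0 and Cufflinks 2.2.1. The deposited values are FPKM from the authors' Cufflinks run, with no further scaling stated. Here, ratios were taken without a pseudocount for genes reaching 1 FPKM in 1 library or both, with 2-fold as threshold. Depth was estimated from single reads on olfactory receptor genes (17 to 28 per library), and reads per gene from depth and GENCODE M21 transcript length. Intervals are exact Poisson for levels and exact conditional binomial for ratios. A lowess trend (span 0.3) on length and GC content, known for 93.7% of rows with 1 FPKM, was subtracted as an alternative. The steps were tested on simulated data. Named genes were the ligands, the other *Wnt* rows, *Tbx18*, up to 4 genes per pathway list by mean FPKM, and the 5 nearest profiles. Others were chosen after their values were seen. Members and lists were chosen with earlier results of these data known. The trend was fitted with statsmodels 0.14.6 and intervals with scipy 1.17.1, under Python 3.11.15 (pandas 2.3.3, numpy 2.4.6), and figures were drawn with matplotlib 3.10.9.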

Additional observations from a re-analysis of the deposited data

Results flagged for a closer look

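Under the same contrast 5 ligands had opposite directions, each from 1 library per group, and none of these differences was tested. Between genotypes, *Wnt4* had a log2 ratio of mutant to wild type of -0.22 at E16.5 and 1.29 at E18.5, and *Wnt10a* of -0.17 and 1.55. Between stages, *Wnt2* had a log2 ratio of E18.5 to E16.5 of -0.79 in wild type and 0.41 in the mutant, *Wnt2b* of -0.33 and 0.46, and *Wnt5b* of -1.19 and 0.0098. For *Wnt2b* the opposite direction was lost in other settings, since its wild type value became 0.0057 after centring on all genes and 0.40 with the GC and length trend subtracted. The mutant value of *Wnt5b* has a counting interval of -0.14 to 0.16 and was -0.02 with the library sums made equal, and the E16.5 value of *Wnt10a* one of -0.44 to 0.10.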

How the results depend on the processing

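The 4 comparisons were recomputed under 10 other settings, chosen with earlier results of these data known. Of the 8 ligands at least 2-fold higher in the E18.5 mutant, 4 of 10 passed with the library sums made equal (6.07% of all genes did), 1 of 10 with the length and GC trend subtracted (3.51%) and 5 of 6 tested with at least 5 FPKM in either library (14.5%). With E16.5 wild type in place of E18.5 wild type, chosen after the data were seen, 0 passed (1.23%). Of the 7 ligands at least 2-fold lower at E18.5 in wild type, 2 passed with that trend subtracted (3.31%), 4 of 6 tested with at least 5 FPKM (15.6%), and 4 with a pseudocount of 1 (10.2%). The other counts of ligands past 2-fold stayed within 1.5 times. At E16.5 the number of ligands above 0 went from 8 to 5 with the library sums made equal. Of 382 recomputed ratios of single ligands, 290 stayed within the counting interval, 92 moved beyond it, and no ratio past 2-fold changed sign. The 290 include all ratios under settings that change only which genes enter, by FPKM filter or by leaving out repeated symbols. Those ratios equal the main ones and could not move, so the 290 do not measure stability. No paired analysis was possible because each group is 1 library, and no library could be left out within a comparison. Depth limits *Wnt10a* most, at about 31 reads in E18.5 wild type.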

Other observations

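The transcription factors through which β-catenin acts were chosen for mention here after their values were seen. *Tcf7l1*, *Tcf7l2* and *Lef1* had 32.2, 16.3 and 6.32 FPKM in E18.5 wild type and 19.0, 9.08 and 3.35 FPKM in the E18.5 mutant. Their log2 ratios of -0.76, -0.85 and -0.92 were opposite in sign to those of the ligands and did not reach 2-fold. The median over all genes was 0.31. After subtraction of the length and GC trend the ratios were -1.54, -1.02 and -1.28, past 2-fold lower as were 5.28% of all genes. *Tcf7*, the fourth of the family, had a log2 ratio of -0.12, and of -0.60 with that trend subtracted. At E16.5 the ratios of *Tcf7l1*, *Tcf7l2* and *Lef1* were 0.02, -0.09 and -0.20.

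Genes with a profile like the median of the ligands were counted. Among 13644 genes with at least 1 FPKM in all 4 libraries, the 5 nearest to the median profile of the ligands, by Euclidean distance of centred log2 FPKM over the 4 libraries, were *2810410L24Rik*, *Zdhhc18*, *Rhod*, *Itm2c* and *Srrd*, at distances of 0.03 to 0.06, and 586 genes lay within 0.25. No single ligand did. *Wnt7b* was nearest to that profile (0.252) and *Wnt5a* farthest (1.16).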
